A study of Rattus norvegicus with 8 samples.

Results

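The genes of complement components and receptors examined here were C1qa, C1qb, C1qc, C3, Cfb, Cfp, C3ar1 and C5ar1, 8 genes chosen by symbol of the 32623 genes in the count tables. Spinal cord cells of 8-week-old female Wistar rats had been captured with droplet-based 10x Genomics 3′ libraries 7 days after surgery. Contusion was by a 10 g weight falling on the exposed cord at T9, with drop heights of 12.5 mm (mild), 25 mm (moderate) and 50 mm (severe), sham rats had laminectomy only, and 10 mm of cord around the lesion was taken. Each of the 4 groups had 2 libraries, called replicates 1 and 2, and 8 spinal cords were sequenced in all, as many as there are libraries. The labels do not tie a library to an animal, and p-values measure the spread between libraries. Levels are given as unique molecular identifiers (UMIs) divided by all UMIs of a cell type in a library and scaled to counts per 1000000 (CPM), where a UMI marks 1 RNA molecule read at its 3′ end and needs no scaling to gene length.

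Complement is a cascade of plasma and tissue proteins that tags cells and debris for uptake. C1q, built of the chains that C1qa, C1qb and C1qc encode, recognises targets and starts the classical pathway, and C3 is the component on which all pathways converge. Factor B (Cfb) and properdin (Cfp) form and stabilise the convertase of the alternative pathway, while C3ar1 and C5ar1 are the receptors for the small fragments released from C3 and C5. In the central nervous system microglia are known as the main source of C1q, and complement takes part in the removal of synapses and myelin debris.

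The 250 bases before the transcription start of C1qa and C1qb are shown because both genes followed each other over cell types, and those of C3 and Cfp because these genes were higher in neutrophils than in macrophages/microglia in most libraries. Sequences are from RefSeq, build GRCr8, which differs from the Rnor_6.0 build of the counts. They span chr5:154419934-154420183 (minus strand) for C1qa, chr5:154407828-154408077 (minus strand) for C1qb, chr9:2201340-2201589 (minus strand) for C3 and chrX:3715301-3715550 (plus strand) for Cfp. Capitals mark the core of the PU.1 motif (GAGGAA) and the C/EBP-type motif (TTGCNNAA), searched on both strands. PU.1 and C/EBP proteins are transcription factors of myeloid cells.
C1qa promoter: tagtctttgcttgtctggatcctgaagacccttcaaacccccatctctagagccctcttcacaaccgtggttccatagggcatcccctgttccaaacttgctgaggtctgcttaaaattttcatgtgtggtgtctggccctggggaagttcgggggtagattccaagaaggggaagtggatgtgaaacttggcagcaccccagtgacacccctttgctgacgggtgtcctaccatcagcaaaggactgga
C1qb promoter: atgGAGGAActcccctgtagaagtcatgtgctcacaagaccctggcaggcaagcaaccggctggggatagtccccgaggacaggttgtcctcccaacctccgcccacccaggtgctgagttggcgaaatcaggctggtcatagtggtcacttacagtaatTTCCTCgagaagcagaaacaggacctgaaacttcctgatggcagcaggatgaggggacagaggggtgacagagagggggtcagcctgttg
C3 promoter: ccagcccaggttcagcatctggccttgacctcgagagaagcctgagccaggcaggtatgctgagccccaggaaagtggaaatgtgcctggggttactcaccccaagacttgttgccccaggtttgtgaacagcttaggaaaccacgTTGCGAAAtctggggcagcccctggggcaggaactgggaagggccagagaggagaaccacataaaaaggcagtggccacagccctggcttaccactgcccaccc
Cfp promoter: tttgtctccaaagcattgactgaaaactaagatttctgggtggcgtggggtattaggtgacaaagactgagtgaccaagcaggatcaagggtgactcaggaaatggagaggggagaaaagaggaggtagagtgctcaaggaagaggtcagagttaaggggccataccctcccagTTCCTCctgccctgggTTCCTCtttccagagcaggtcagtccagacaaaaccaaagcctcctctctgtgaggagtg
The PU.1 core was found 2 times each before C1qb and Cfp and 0 times before C1qa, C3 and C3ar1, while 23.2% of all 27457 promoters of this length held it. The C/EBP-type motif was found 1 time, before C3, and 9.20% of all promoters held it. The interferon-response-type motif, held by 3.29% of promoters, had 0 matches before the 5 members found in the promoter table. The NF-kB-type motif, held by 15.5%, had 1 match before C3ar1 and 3 before C1qb, where 2 overlapped each other and the other overlapped a PU.1 core. These are matches of letters and not measured binding sites. The other members were C1qc, C5ar1 and Cfb.

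Of 68658 deposited cells, 55449 remained after quality control, with a median of 2745 to 10814 UMIs per cell in a library and 31482153 to 131045446 UMIs in all deposited cells of a library. A cell was given a type when it held at least 3 markers of that type, from lists that contain none of the 8 genes. This gave 28406 macrophages/microglia, 10125 neutrophils, 5050 oligodendrocytes, 2615 oligodendrocyte precursors, 2025 fibroblasts and 1455 T cells/NK cells. The summed macrophage/microglia markers lay between 5052 and 7892 CPM in their own type and at 2183 CPM or less in every other, whereas the 45 cells gated as neurons held less of the neuron markers (472 CPM) than the highest other type (2126 CPM) and are not described. The sham libraries stood apart from each other, since sham replicate 1 held 5159 neutrophils among 9192 cells and sham replicate 2 held 1 among 2337. Pairs of libraries shared 5 to 40 cell barcodes, at most 0.452% of the smaller library.

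The C1q chains were macrophage/microglia transcripts in these tissues. Over all kept cells C1qb held 1331408 UMIs, C1qa 1146861 and C1qc 785642, against 64133 for C5ar1, 32284 for Cfp, 8392 for C3, 5528 for C3ar1 and 705 for Cfb. Cfb was listed under 2 identifiers, of which ENSRNOG00000051158 held 0 UMIs and ENSRNOG00000000419 held all others. In macrophages/microglia the mean level was 4121 ± 1654 CPM for C1qb, 3492 ± 1387 CPM for C1qa and 2410 ± 851 CPM for C1qc (SD, n = 8 libraries).

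**Figure D1:**
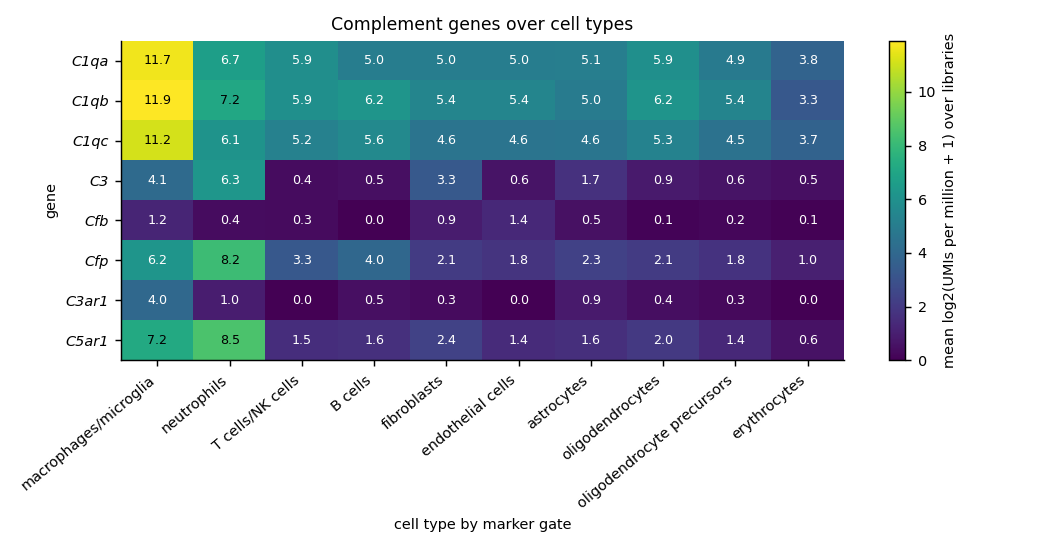
Mean log2(CPM + 1) of the 8 genes (vertical axis) in the 10 cell types present with at least 20 cells in at least 3 libraries (horizontal axis), with the mean printed in each cell. The C1q chains and C3ar1 are highest in macrophages/microglia, and C3, Cfp and C5ar1 in neutrophils.

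Levels were compared between the highest cell type and the next by an exact two-sided sign-flip permutation test over libraries, adjusted over the 8 genes. Both types were picked for each gene by their mean level in these same libraries, and the adjustment does not cover that choice. The C1q chains were higher in macrophages/microglia than in neutrophils in 7 of 7 libraries, by 4.88 ± 1.18 (SD) for C1qa, 4.64 ± 1.19 for C1qb and 4.96 ± 1.13 for C1qc on the log2(CPM + 1) scale, each with adjusted p = 0.0208 by the exact permutation test. C3ar1 was also higher in macrophages/microglia in 7 of 7 libraries, by 2.997 ± 1.28 with the same adjusted p. With 7 libraries the smallest raw p this test can give is 0.0156. With all 67 neighbouring pairs of the 8 genes corrected together, the smallest adjusted p of the permutation test was 0.150. Under that correction neither the highest cell type nor the order below it was resolved.

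Outside myeloid cells C1q was present at a low level that did not single out a type. The summed level of the 3 chains was at a median of 1.75% of the macrophage/microglia level of the same library in fibroblasts, 1.77% in oligodendrocytes, 1.29% in oligodendrocyte precursors, 2.75% in T cells/NK cells and 0.494% in erythrocytes. In neutrophils this median was 4.80%. The sum of 9 macrophage/microglia markers stood in the same libraries at 3.69% to 5.79% of its macrophage/microglia level in fibroblasts, 4.31% to 8.01% in oligodendrocytes, 0.163% to 1.01% in erythrocytes and 15.1% to 31.8% in neutrophils. The marker sum stood at 2.06% to 4.02% in oligodendrocyte precursors and at 1.80% to 10.2% in T cells/NK cells. The source of C1q in these types was not tested, and its level there was not read as expression.

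After each cell had been thinned to 1000 UMIs, 98.9% ± 0.40 (SD, n = 8) of microglia-type cells held a UMI of C1qa, against 1.35% ± 1.30 (n = 3) of erythrocytes. Unthinned, these shares were 99.7% and 11.2%, at median depths of 9015 to 20629 UMIs in microglia-type cells and 4382 to 7739 UMIs in erythrocytes. Thinning left 28020 of 28406 macrophages/microglia, 6798 of 10124 neutrophils and 992 of 1028 erythrocytes in the libraries with at least 20 such cells, and each of the 5618 microglia-type cells. For C1qb the thinned share was 99.4% ± 0.34 and for C1qc 96.2% ± 2.36 of microglia-type cells, against 3.03% ± 2.63 and 1.50% ± 0.25 of erythrocytes. The erythrocyte shares come from sham replicate 1 and both severe replicates, with no mild or moderate library. Their own markers made up 394869 to 438606 CPM of these cells. Of thinned neutrophils, 1.65% to 24.4% in a library held a UMI of C1qb. Whether the erythrocyte share stands for the background of other types was not tested. Intervals and floors on shares cover counting error only.

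Macrophages/microglia were divided by further markers into microglia-type cells (5618), a border-type with markers of macrophages at the borders of the nervous system (9419) and an infiltrating-type with markers of macrophages derived from blood (7152). The lists are again free of the 8 genes. A further 6217 macrophages/microglia were given no subset and count only in the type as a whole. They formed 39.4% and 15.0% of it in sham replicates 1 and 2 and 14.7% to 27.1% in the injured libraries. Their median depth was 2415 to 7991 UMIs in a library, against 9015 or more in each subset, so the subset shares can depend on depth. Their mean level of Cfp was 122 CPM, against 71.3 to 78.6 CPM in the subsets. The border-type markers separated least, at 1374 to 5526 CPM in their own subset and up to 5282 CPM in another. Microglia-type cells formed 28.6% and 77.3% of macrophages/microglia in sham replicates 1 and 2 and between 3.99% and 20.7% in the injured libraries. Infiltrating-type cells numbered 80 and 4 in the sham libraries, so that sham replicate 2 has no value for them. Border-type cells numbered 112 and 157 in sham replicates 1 and 2, which was 18.6% and 7.53% of macrophages/microglia. They formed 24.9% to 41.1% in the injured libraries. Of thinned border-type cells, 3.57% and 12.7% held no UMI of any C1q chain in sham replicates 1 and 2. In the injured libraries this share was 26.3% to 51.4%. Whether sham and injured border-type cells are the same population was not tested.

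**Figure D2:**
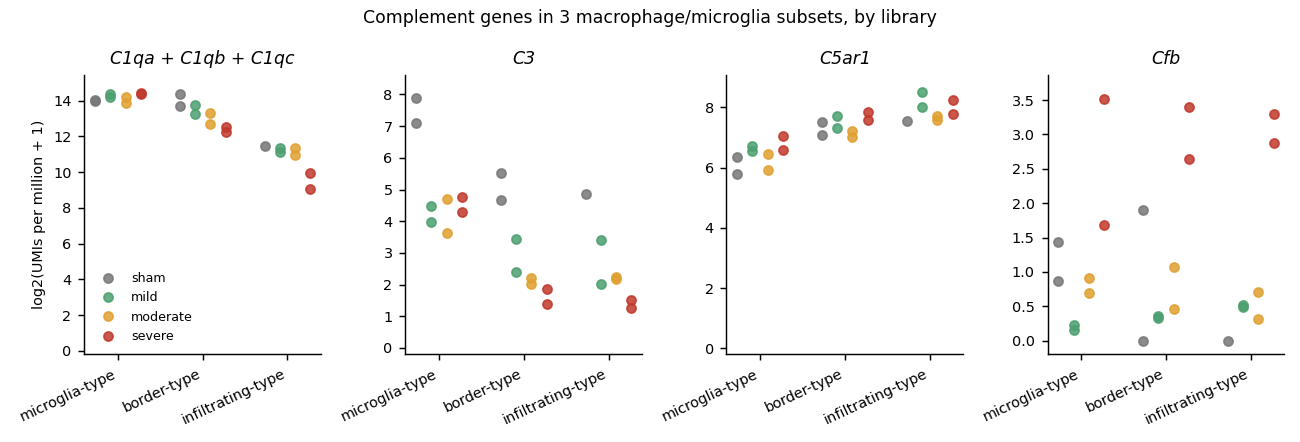
log2(CPM + 1) of the summed C1q chains, C3, C5ar1 and Cfb in each library (points, coloured by group) of the 3 subsets on the horizontal axis. The C1q sum falls from microglia-type to infiltrating-type cells, C5ar1 rises, C3 is highest in the sham libraries of each subset and Cfb is highest in severe libraries.

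The subsets differed strongly in C1q, C3 and C5ar1. In 7 libraries with at least 20 cells of both subsets, fitted with the library as a block by edgeR's quasi-likelihood test, 6 of the 7 members tested were called between microglia-type and infiltrating-type cells, 5 higher in microglia-type and 1 lower, where 52.3% of all 10394 genes were called. Cfb was below the filter on low counts. The 80 infiltrating-type cells of sham replicate 1, part of this fit and of the ranges below, held 41049 CPM of 12 summed neutrophil markers. In the injured libraries this sum was 2278 to 3950 CPM. The median log2 difference of the 7 members was 2.19, against 0.00 over all genes.

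C1qa ranged from 5539 to 7811 CPM with a median of 6381 CPM in microglia-type cells and from 161 to 876 CPM with a median of 744 CPM in infiltrating-type cells. The ranges did not overlap for any of the 3 chains, in a comparison where 52.3% of all genes were called. For how many of all genes the ranges were apart was not counted. The log2 difference was 3.22 (SE 0.35, adjusted p = 2.0e-05 by edgeR) for C1qa, 3.16 (SE 0.34, adjusted p = 1.6e-05) for C1qb and 3.06 (SE 0.33, adjusted p = 1.8e-05) for C1qc. Border-type cells held 1617 to 6531 CPM of C1qa, above their microglia-type counterpart in sham replicate 1 and below it in the other 7 libraries, and were lower than microglia-type cells for C1qa (log2 difference 0.86, SE 0.21, edgeR adjusted p = 0.0054) and C1qb (0.83, SE 0.21, adjusted p = 0.0074). For C1qc the difference of 0.61 (SE 0.24) had an adjusted p of 0.054 by edgeR. In that comparison 5 of 8 members were called, where 44.2% of all genes were.

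In infiltrating-type cells the chains were detected in fewer cells than in microglia-type cells. At 1000 UMIs, between 65.4% and 90.7% of infiltrating-type cells of a library held no UMI of any chain and 1.47% to 10.6% held all 3, whereas 93.0% to 98.3% of microglia-type cells held all 3 in 7 libraries and 90.9% did in sham replicate 2. Unthinned, at median depths of 9105 to 18850 UMIs, 14.7% to 75.8% of infiltrating-type cells of a library held a UMI of C1qb, so that cells with none at 1000 UMIs cannot be read as lacking it. The counts of C1qa and C1qb in these cells correlated across cells with r = 0.75 to 0.92 within a library, which is given as a description only.

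C3, the hub of the cascade, was at 11.3 to 26.0 CPM in injured and 135 and 236 CPM in sham microglia-type cells, and higher in these cells than in infiltrating-type cells by a log2 difference of 2.19 (SE 0.27, edgeR adjusted p = 5.2e-05). C3ar1, the receptor for the C3a fragment, was higher in microglia-type cells by 0.97 (SE 0.14, adjusted p = 0.00013). C5ar1, the receptor for C5a that attracts myeloid cells, went the other way. It was at 54.7 to 131 CPM in microglia-type cells, 128 to 232 CPM in border-type cells and 186 to 367 CPM in infiltrating-type cells, with a log2 difference of microglia-type from infiltrating-type cells of -1.70 (SE 0.09, edgeR adjusted p = 1.7e-07) and from border-type cells of -1.15 (SE 0.06, adjusted p = 6.5e-08). Cfp did not pass the test between microglia-type and infiltrating-type cells, with a log2 difference of -0.15 (SE 0.33, edgeR adjusted p = 0.73).

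The effect of injury was tested in macrophages/microglia with all 4 groups in 1 edgeR quasi-likelihood fit. The 3 injured groups were compared with the same sham libraries, so that their results are not independent. With the injured groups averaged, 2 of 8 members were called at an adjusted p under 0.05, C3 lower and C5ar1 higher, where 8.92% of 13728 genes were called. For the mild group 1 of 8 was called (4.91% of all genes), for the moderate group 1 of 8 (1.47%) and for the severe group 2 of 8 (6.75%). From mild to moderate 0 of 8 were called by edgeR, as were 0% of all genes, with 1 member at an unadjusted p under 0.05. The share of all genes at that unadjusted threshold was not counted. The median log2 fold change of the 8 members was -0.49 for the injured groups together, against -0.03 over all genes.

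**Figure D3:**
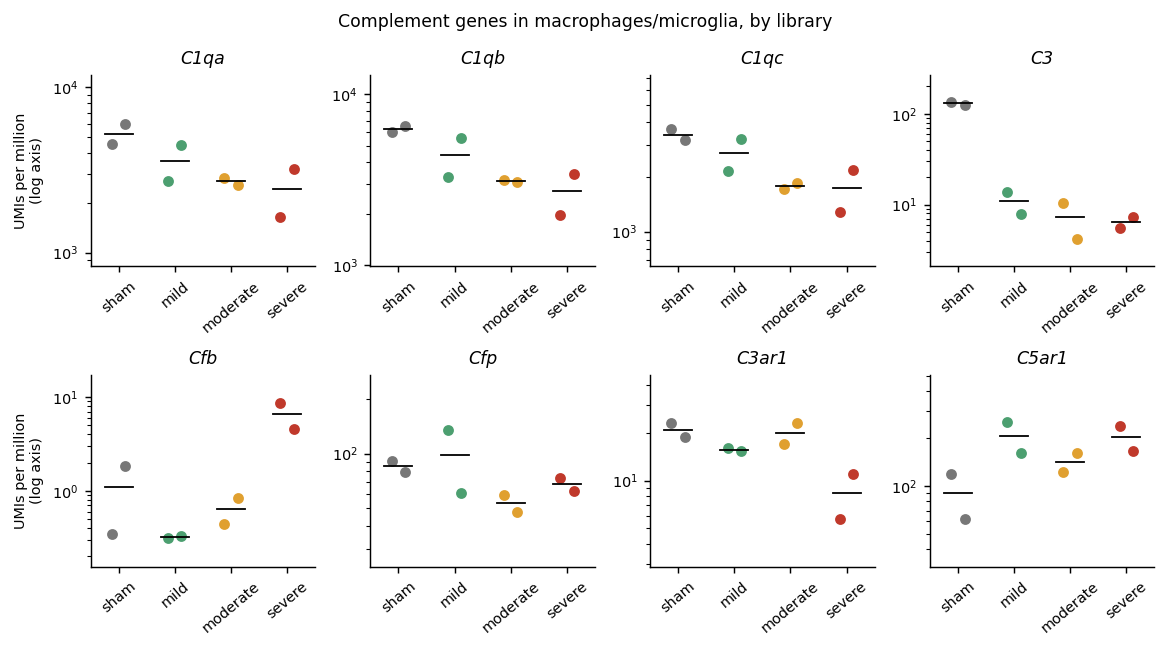
CPM of each gene in macrophages/microglia (vertical axes, log scale, each with its own range) by group, with a point per library and a bar at the group mean. C3 lies at 125 and 135 CPM in the sham libraries and at 13.7 CPM or less in the injured ones, and Cfb reaches 4.59 and 8.63 CPM in the severe libraries.

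In macrophages/microglia C3 showed the largest difference of the 8 genes between the injured groups together and sham. Its level in macrophages/microglia was 135 and 125 CPM in sham replicates 1 and 2, 13.7 and 7.92 CPM in the mild, 10.5 and 4.17 CPM in the moderate and 5.53 and 7.38 CPM in the severe replicates. The sham libraries lay far above all injured libraries, and the injured groups overlapped each other. The share of all genes with sham and injured libraries apart was not counted. The log2 fold change of C3 was -3.84 (SE 0.34, edgeR adjusted p = 0.0037) in the injured groups together, -3.51 (adjusted p = 0.022) in the mild, -4.16 (adjusted p = 0.024) in the moderate and -3.84 (adjusted p = 0.0090) in the severe group. The call for the injured groups together held in all 16 alternatives, with log2 fold changes from -4.14 to -3.67 and adjusted p up to 0.023. Of the single groups, the mild call was lost without either mild library (adjusted p = 0.13 and 0.15), the moderate call without moderate replicate 2 (0.095) or either severe library (0.051 and 0.050), and the severe call without either severe library (0.077 and 0.053). The mild and moderate calls were also lost with only the groups compared in the fit.

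Neutrophil markers stood beside this difference unequally in the sham libraries. The sum of 12 neutrophil markers in macrophages/microglia was 11614 CPM in sham replicate 1 and 228 CPM in sham replicate 2, and 950 to 2353 CPM in the injured libraries. C3 stood at similar levels in sham replicates 1 and 2 (values above), and sham replicate 2 held 1 neutrophil. The part of neutrophil RNA in the C3 of macrophages/microglia was not tested. The share of macrophages/microglia with a UMI of C3 at 1000 UMIs was 9.51% and 12.1% in the sham libraries and 0.594% to 1.99% in the injured, and 0 of 992 erythrocytes held a UMI, which allows a share of up to 0.302%.

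C3 was also lower within the subsets that had both sham libraries, which were set by markers and differed in share between sham and injured libraries. In microglia-type cells it fell by 3.14 on the log2 scale (SE 0.28, edgeR adjusted p = 0.0041), and 1 of 8 members was called there, where 1.68% of 11077 genes were. In border-type cells C3 was at 44.6 and 24.5 CPM in the sham libraries and at 1.59 to 9.74 CPM in the injured, a log2 fold change of -3.04 (SE 0.34, adjusted p = 0.0045), where 3.77% of genes were called. In infiltrating-type cells it was at 28.1 CPM in the 1 sham library and at 1.39 to 9.57 CPM in the injured, a log2 fold change of -2.99 (SE 0.55, adjusted p = 0.023), where 5.01% of genes were called. With 1 sham library that group has no spread of its own, and the test assumes that it varies as the injured groups do. That sham value rests on 80 cells and on 41049 CPM of neutrophil markers, against 2278 to 3950 CPM in the injured libraries. In microglia-type cells neutrophil markers were at 3225 and 234 CPM in sham replicates 1 and 2 and at 124 to 309 CPM in the injured libraries. In border-type cells these markers were at 7524 and 283 CPM in the sham replicates and at 615 to 938 CPM in the injured libraries. The difference of the injury effect on C3 between microglia-type and border-type cells was -0.23 (SE 0.49, edgeR adjusted p = 0.92). Outside these cells, fibroblasts held C3 at 47.2 CPM (182 UMIs) in sham replicate 1, their only sham library with at least 20 cells. Injured fibroblasts held 0.74 to 18.1 CPM (2 to 76 UMIs). This was 34.9% of the macrophage/microglia level in sham replicate 1 and 17.8% to 141% in the injured libraries. Their summed macrophage/microglia markers stood at 3.69% to 5.79%. The source of C3 in fibroblasts was not tested.

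C1q did not pass the test against sham in macrophages/microglia as a whole. C1qb was at 6014 and 6496 CPM in the sham, 3293 and 5563 CPM in the mild, 3141 and 3063 CPM in the moderate and 1973 and 3429 CPM in the severe replicates. The sham values lay above the injured values for C1qa and C1qb and overlapped with them for C1qc. For how many of all genes the sham and injured libraries were apart was not counted. The log2 fold change in the injured groups was -0.71 (SE 0.35, edgeR adjusted p = 0.21) for C1qa, -0.74 (SE 0.32, adjusted p = 0.17) for C1qb and -0.57 (SE 0.28, adjusted p = 0.22) for C1qc.

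Within microglia-type cells the C1q chains had positive fold changes that did not pass the test either. C1qb was at 7262 and 6714 CPM in the sham libraries and at 6235 to 9120 CPM in the injured, and the groups overlapped. The log2 fold change was 0.28 (SE 0.26) for C1qa, 0.25 (SE 0.25) for C1qb and 0.46 (SE 0.25) for C1qc, with adjusted p = 0.57, 0.59 and 0.31 by edgeR. In border-type cells it was -0.79 for C1qa, -0.90 for C1qb and -1.03 for C1qc, with adjusted p = 0.11, 0.094 and 0.068. The difference between microglia-type and border-type cells in this effect was 1.14 (SE 0.36) for C1qa, 1.19 (SE 0.36) for C1qb and 1.51 (SE 0.33) for C1qc, with adjusted p = 0.32, 0.29 and 0.12 by edgeR. Of this difference 0 of 8 members were called by edgeR at an adjusted p under 0.05, where 0.191% of genes were called. At an unadjusted p under 0.05 there were 5 members, and the share of all genes at that threshold was not counted. Border-type cells without C1q were more frequent in the injured libraries (values above), and the part of this in the fold changes was not tested. In infiltrating-type cells the severe libraries were lowest, with 161 and 343 CPM of C1qa against 739 to 876 CPM in the other injured libraries, a log2 fold change of -1.17 (SE 0.38, adjusted p = 0.084) from moderate to severe.

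C5ar1 was higher after injury in macrophages/microglia, by a smaller amount. Its level was 120 and 61.9 CPM in the sham, 252 and 161 CPM in the mild, 123 and 161 CPM in the moderate and 241 and 166 CPM in the severe replicates. All injured libraries lay above both sham libraries, with moderate replicate 1 close to sham replicate 1. The share of all genes with such an order was not counted. The log2 fold change was 1.21 (SE 0.29, edgeR adjusted p = 0.043) for the injured groups together and 1.68 (SE 0.34, adjusted p = 0.030) for the severe group. The first call was lost when any library other than sham replicate 1 was left out, with adjusted p from 0.0024 to 0.11 over its alternatives, and the second when any of the 6 injured libraries was, with adjusted p from 0.00041 to 0.14. Within the subsets C5ar1 did not pass the test against sham, with log2 fold changes of 0.55 in microglia-type (adjusted p = 0.21), 0.35 in border-type (adjusted p = 0.33) and 0.50 in infiltrating-type cells (adjusted p = 0.33 by edgeR). The share of microglia-type cells, the subset with the least C5ar1, was lower in the injured libraries (values above), and its part in the difference was not tested. In border-type cells C5ar1 was at 128 and 146 CPM in the moderate and 232 and 191 CPM in the severe replicates. From moderate to severe 2 of 8 members were called higher in border-type cells by edgeR, where 6.07% of genes were called.

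Cfb was highest in the severe libraries. In macrophages/microglia it was at 0.35 and 1.83 CPM in the sham, 0.31 and 0.33 CPM in the mild, 0.44 and 0.83 CPM in the moderate and 8.63 and 4.59 CPM in the severe replicates. The severe libraries held 156 and 308 UMIs, and the others 2 to 40. From moderate to severe 1 of 8 members was called in macrophages/microglia, Cfb with a log2 fold change of 3.88 (SE 0.70, edgeR adjusted p = 0.040), where 1.78% of genes were called. Leaving out any of the 6 injured libraries ended this call, with adjusted p from 0.088 to 0.19, while the fold change stayed between 3.43 and 4.34. Against sham the severe group had a log2 fold change of 2.78 (SE 0.69) with edgeR adjusted p = 0.053, which ran from 0.00038 to 0.20 over the alternatives. Without sham replicate 2, the sham library with more Cfb, this fold change was 4.86 (adjusted p = 0.013), and without sham replicate 1 it was 2.17 (adjusted p = 0.042).

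A difference in the same direction from moderate to severe appeared in subsets of these cells and in fibroblasts. Whether it holds there with a library left out was not tested. In infiltrating-type cells Cfb was at 0.25 and 0.63 CPM in the moderate and 8.82 and 6.35 CPM in the severe replicates, a log2 fold change of 4.53 (SE 0.45, edgeR adjusted p = 0.0018), where 8.63% of genes were called. The sham library of this subset held 0 UMIs of Cfb, and against the floor of 3 counts, 3.01 CPM, the severe mean was at least 2.52-fold higher. In border-type cells the change was 3.78 (SE 0.65, edgeR adjusted p = 0.015). There 2 of 8 members were called higher, Cfb among them, where 6.07% of genes were called. In fibroblasts the change was 3.93 (SE 0.86, edgeR adjusted p = 0.041, 8.58% of genes called). Fibroblasts held 0.17 and 0.37 CPM in the moderate and 3.87 and 2.19 CPM in the severe replicates. The fibroblast values rest on 1 UMI of Cfb in each moderate replicate and on 31 and 12 UMIs in the severe replicates. In microglia-type cells the change of 3.30 (SE 0.90) had an adjusted p of 0.098 by edgeR. The sham replicates held 0.00 and 2.72 CPM of Cfb in border-type cells, and the severe replicates 9.58 and 5.24 CPM. In microglia-type cells Cfb was at 0.82 and 1.71 CPM in the sham and 10.4 and 2.22 CPM in the severe replicates. Fibroblasts of sham replicate 1 held 1.30 CPM, on 5 UMIs. Endothelial cells held 9.19 and 4.05 CPM in the severe replicates, 0.00 CPM in mild replicate 2 and 1.30 and 0.00 CPM in the sham replicates. These values rest on 7 and 5 UMIs of Cfb in the severe replicates and 2 UMIs in sham replicate 1. Endothelial cells had the highest mean of Cfb, but in the 5 libraries with both types their difference from macrophages/microglia was -0.24 ± 0.83 on the log2 scale (exact sign-flip permutation p = 0.63).

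C3ar1 and Cfp did not pass the test against sham in macrophages/microglia. C3ar1 was at 22.9 and 18.8 CPM in the sham, 16.0 and 15.4 CPM in the mild, 16.9 and 23.1 CPM in the moderate and 5.75 and 11.0 CPM in the severe replicates. The severe libraries were the lowest, with a log2 fold change of -0.80 (SE 0.34, edgeR adjusted p = 0.18) against sham, which passed only with normalization by library size (adjusted p = 0.046, at most 0.52 over the alternatives). Cfp was at 90.5 and 79.3 CPM in the sham libraries and 47.9 to 135 CPM in the injured, with a log2 fold change of -0.08 (SE 0.29, adjusted p = 0.87). In infiltrating-type cells Cfp was at 183 CPM in sham replicate 1 and at 38.3 to 136 CPM in the injured libraries, a log2 fold change of -1.63 (SE 0.37, edgeR adjusted p = 0.047), again against 1 sham library with no spread of its own and with the neutrophil markers given above. The median log2 fold change of all genes in that comparison was 0.22.

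Neutrophils were the highest type for C3, Cfp and C5ar1. In 7 libraries with neutrophils and macrophages/microglia, fitted with the library as a block by edgeR's quasi-likelihood test, 3 members were higher and 4 lower in neutrophils, of 7 tested, where 65.3% of 10389 genes were called. Cfp, stored in neutrophil granules, was at 156 to 573 CPM with a median of 278 CPM in neutrophils and higher by a log2 difference of 2.24 (SE 0.16, adjusted p = 3.4e-08). C5ar1 was at 195 to 805 CPM with a median of 423 CPM and higher by 1.37 (SE 0.18, adjusted p = 1.3e-05).

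**Figure D4:**
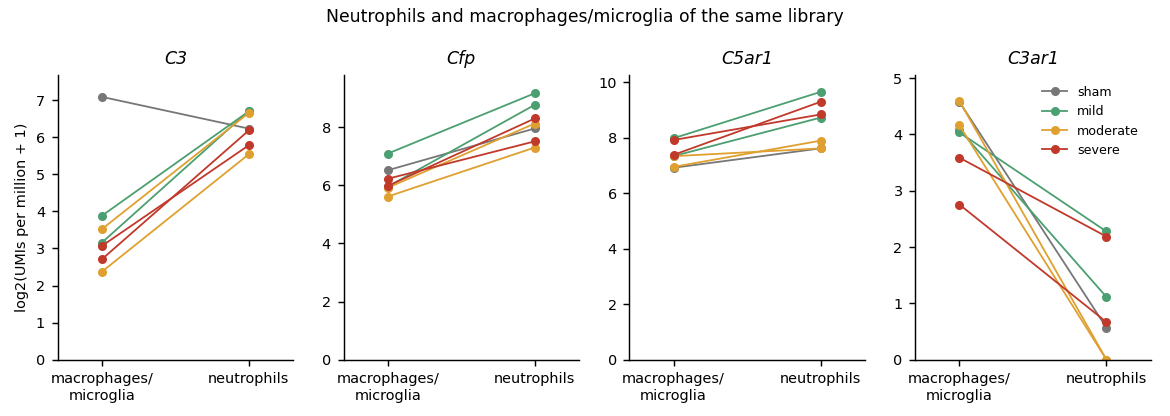
log2(CPM + 1) of C3, Cfp, C5ar1 and C3ar1 in macrophages/microglia and neutrophils of the same library, joined by a line coloured by group, for 7 libraries. C3 rises towards neutrophils in the 6 injured libraries and falls in sham replicate 1, while Cfp and C5ar1 rise and C3ar1 falls in each.

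C3 was at 103 and 104 CPM in the mild, 99.9 and 45.6 CPM in the moderate and 71.8 and 54.2 CPM in the severe replicates of neutrophils and at 74.2 CPM in sham replicate 1. In neutrophils the sham library lay within the range of the injured ones, unlike in macrophages/microglia. C3 was higher in neutrophils by 2.98 (SE 0.37, edgeR adjusted p = 6.85e-06), and in 6 of 7 libraries, the exception being sham replicate 1. The exact sign-flip permutation test gave a mean difference of 2.57 ± 1.54 (SD, n = 7) with adjusted p = 0.036 for C3, 1.98 ± 0.54 with adjusted p = 0.021 for Cfp and 1.12 ± 0.57 with adjusted p = 0.021 for C5ar1. At 1000 UMIs, 24.9% ± 11.2 of neutrophils held a UMI of Cfp and 28.5% ± 15.0 one of C5ar1 (SD, n = 7), against 0.0394% ± 0.0683 (n = 3) of erythrocytes for each. Libraries counted equally in these means. Thinning left 20 neutrophils in moderate replicate 1 and 45 in mild replicate 2, against 4486 in sham replicate 1. Unthinned, 29.3% and 36.3% of neutrophils held one, against 1.02% and 0.307% of erythrocytes, and the median depth of neutrophils was 662 to 2428 UMIs. In neutrophils the contrasts possible were moderate against mild and severe against moderate. In both, 0 of 6 members tested were called by edgeR, where 0.0742% and 0.569% of genes were called. At an unadjusted p under 0.05 there were 2 and 3 members, and the share of all genes at that threshold was not counted.

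Members were also called in oligodendrocytes and their precursors. C3 was lower in injured than in sham oligodendrocytes, at 0.00 to 0.62 CPM against 3.35 and 4.18 CPM (log2 fold change -3.10, SE 0.59, edgeR adjusted p = 0.015), 1 of 6 members tested, where 9.58% of genes were called. The sham values rest on 43 and 2 UMIs of C3 and the injured on 0 to 6. C3 stood at 2.48% and 3.33% of the macrophage/microglia level in sham replicates 1 and 2 and at 0.00% to 7.74% in the injured libraries. The summed macrophage/microglia markers stood at 5.51% and 8.01% in these sham oligodendrocytes. The source of this C3 was not tested, and it was not read as expression. The summed C1q of oligodendrocytes was at 246 and 958 CPM in these sham libraries and 12.6 to 393 CPM in the injured. In oligodendrocyte precursors C1qa, C1qb, C1qc and C5ar1 were lower in severe than in moderate libraries, with log2 fold changes from -2.88 to -1.85, 4 of 5 members tested, where 8.73% of genes were called. The chains were at 0.87 to 101 CPM there. Their sum lay at 3.0% of the macrophage/microglia level or less in each library, and C5ar1 at 3.51% or less. These levels were not read as expression.

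Patterns over cell types were compared by Pearson's r of log2(CPM + 1) over 64 sums of 14 cell types and the libraries, which share libraries and depth, among 7776 genes with a mean of at least 10 CPM. C1qa was most like C1qc (0.97), C1qb (0.97) and the macrophage growth factor receptor Csf1r (0.91). C3 was most like Cfd (0.83), which encodes factor D, Lilrb2 (0.80) and Chi3l1 (0.80). C3ar1 was most like the chemokine Ccl12 (0.84), Ltc4s (0.83) and C1qc (0.82). C5ar1 was most like lysozyme Lyz2 (0.91), Igsf6 (0.90) and Slc11a1 (0.90). The genes most like Cfp included Spi1 (0.91), which encodes PU.1, and Tyrobp (0.91). Cfb reached 0.58 with Tuba1c, 0.54 with LOC108351137 and 0.53 with the chemokine Cxcl1.

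Of 42 further genes of the pathway, 41 were in the gene list and 25 passed the filter in macrophages/microglia. The share of all genes called by edgeR was 8.92% for the injured groups together, 4.91% for the mild and 6.75% for the severe group. For the injured groups together 0 of 25 were higher and 1 was lower by edgeR. This was Itgam, a chain of complement receptor 3, at 177 and 35.8 CPM in the sham and 15.7 to 41.7 CPM in the injured libraries, so that the groups overlapped (log2 fold change -1.73, SE 0.43, adjusted p = 0.045). In the mild group 1 was lower, C2 of the classical pathway, at 8.90 and 12.98 CPM against 64.0 and 24.2 CPM in sham (log2 fold change -1.86, SE 0.38, adjusted p = 0.037). In the severe group 1 was higher, Cfd, at 130 and 115 CPM against 91.2 and 44.0 CPM in sham (log2 fold change 1.38, SE 0.28, adjusted p = 0.030). Within border-type cells, part of the same cells, Cfd was at 187 and 169 CPM in the severe against 269 and 328 CPM in the sham libraries (log2 fold change -0.29, SE 0.25, adjusted p = 0.50 by edgeR), and the share of each subset differed between these groups. The 3 pathway genes of highest mean level included Calr (1060 ± 437 CPM), which encodes calreticulin, and C1qbp (230.2 ± 47.2 CPM; SD, n = 8).

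Between microglia-type and infiltrating-type cells 12 of 20 pathway genes tested were called by edgeR, where 52.3% of all 10394 genes were called. Of the pathway genes 3 were higher and 9 lower in microglia-type cells. The genes that were higher included Itgax, a chain of complement receptor 4, with a log2 difference of 0.85 (SE 0.12). Lower were the collectin Colec12 (-5.59), Cd93 (-5.55), the ficolins Fcnb (-4.18) and Fcna (-1.30), Cfd (-2.50) and Itgb2 (-0.89), which encodes the shared chain of complement receptors 3 and 4. The membrane inhibitors Cd55 (-5.003, SE 0.35, adjusted p = 9.1e-07) and Cd59 (-2.63, SE 0.30, adjusted p = 2.9e-05) were lower as well.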

How the data were processed

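Single-cell RNA sequencing of spinal cord gave 8 libraries, whose titles give the group (sham, or mild, moderate or severe contusion) and the replicate. The authors counted UMIs per gene and cell with Cell Ranger on the Rnor_6.0 build and deposited raw counts without normalization; the count tables' header names Cell Ranger 5.0.1. The submitters' processing notes also name Seurat. Cells with over 10% mitochondrial UMIs, the 7.7% with the highest Scrublet score in each library (scanpy 1.11.5), and cells beyond 2 SD of the library mean of UMIs or genes were removed. Each cell took the type with the largest share of its marker list detected, with at least 3 markers and no tie, and macrophages/microglia were divided likewise.

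UMI counts were summed per type and library with at least 20 cells and tested with edgeR 4.0.16 (R 4.3.3) by TMM, filterByExpr and the quasi-likelihood test, with Benjamini-Hochberg adjustment over all genes tested at 0.05. The SE is the log2 fold change divided by the square root of F. Levels of cell types were compared by exact sign-flip permutation over libraries with a pseudocount of 1 CPM (scipy 1.17.1). Shares used cells thinned to 1000 UMIs. On counts simulated for macrophages/microglia, injured against sham, over 13494 genes, 90 of 100 genes changed 4-fold and 9 of 100 changed 2-fold were recovered with 7 false calls. Alternatives were DESeq2 1.42.0, library size only, no filter, no doublet removal, a 20% mitochondrial limit, a strict gate, a gate on thinned cells, a replicate block, only the groups compared and each library left out.

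The members, marker lists and pathway list were chosen with earlier results of these data known. Comparisons with border-type cells and of neutrophils with macrophages/microglia, and the difference of injury effects between subsets, were added after the data were seen. Named beside the 8 members are pathway genes with an adjusted p under 0.05 in macrophages/microglia or between microglia-type and infiltrating-type cells (the 10 of smallest p where more passed), the 3 pathway genes of highest level, and the 3 genes most like each of 6 members; some genes that this rule names are not reported here. Figures were drawn with matplotlib 3.10.9.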

Additional observations from a re-analysis of the deposited data

How the results depend on the processing

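Most counts of called members against sham and from moderate to severe moved with some setting. The share of all genes called was counted in the main fits only, so a changed count cannot be set against it. In macrophages/microglia the 2 members called for the injured groups together were 1 with normalization by library size only and 1 to 2 with a library left out. For the mild group the 1 called became 3 with DESeq2 or with no filter on low counts, 2 with the strict gate or the gate on thinned cells, 0 with only the groups compared, and 0 to 3 with a library left out. For the moderate group it became 0 with only the groups compared and 0 to 1 with a library left out. For the severe group the 2 called became 1 with only the groups compared and 0 to 3 with a library left out. The 0 called from mild to moderate stayed 0 in all settings, with 1 member at an unadjusted p under 0.05. From moderate to severe the 1 called became 0 to 1 with a library left out. In infiltrating-type cells the 2 called became 1 with library size only or no doublet removal and 1 to 2 with a library left out. The 1 called in microglia-type cells and the 6 between microglia-type and infiltrating-type cells kept their number in each setting run. For the gate on thinned cells neither subset had a value, and the strict gate gave none for infiltrating-type cells. With the replicate number as a block the call of Cfb from moderate to severe was lost (0 members called, log2 fold change 3.98, adjusted p = 0.053 by edgeR) and no other count changed. Deviations of libraries with the same number correlated between -0.24 and 0.26 in macrophages/microglia, so the numbers were not taken as pairs. The higher C3 in neutrophils than in macrophages/microglia had differences of 2.41 to 3.15 with a library left out, with adjusted p = 0.071 where any injured library was. The difference in Cfb between endothelial cells and macrophages/microglia ran from -0.49 to 0.075 and turned to 0.075 without sham replicate 2. At 500 UMIs, in place of 1000, 0.815% of macrophages/microglia held a UMI of C3ar1, 7.43% one of C5ar1 and 4.70% one of Cfp. Of all values recomputed, 1273 kept their direction and side of the threshold, 44 no longer passed it, 15 newly passed it, 43 counts or shares moved and 1 turned its direction. With 2 libraries per group, the depth of Cfb and C3ar1 limits what could be detected.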

Other observations

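In infiltrating-type cells the injured groups were set against the 1 sham library for the pathway genes tested, by edgeR's quasi-likelihood fit. That library is the whole sham group, which has no spread of its own, so that fold changes alone are given. The genes named were picked by the test of that fit, which assumes that the library varies as the injured groups do. Higher was Fcnb, which encodes a ficolin that starts the lectin pathway, at 36.2 CPM in sham replicate 1 and 104 to 444 CPM in the injured libraries (log2 fold change 3.01). Lower were Clu (-2.98), which encodes the inhibitor clusterin, Itgam (-2.44), C2 (-1.57) and the membrane inhibitor Cd59 (-1.34). Each of the 4 was higher in sham replicate 1 than in all 6 injured libraries, in a sham sum of 80 cells with 41049 CPM of neutrophil markers. They had been picked as lower from these same values, and the share of all genes with this order was not counted. In border-type cells, with 2 sham libraries, the log2 fold change was -1.95 for Clu (adjusted p = 0.0089 by edgeR), -1.04 for Cfd (adjusted p = 0.027) and -1.01 for Fcna (adjusted p = 0.042). These genes were named after their values were seen. It was not tested whether sham and injured border-type cells are the same population.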
